A study of Rattus norvegicus with 8 samples.

Results

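Genes of the piRNA pathway were followed through 3 stages of the rat male germ line. The list held 10 genes, taken by symbol from the table of raw read counts: Piwil1, Piwil2, Piwil4, Tdrd1, Tdrd9, Mael, Asz1, Mov10l1, Pld6 and Gtsf1. Of these, 7 had a row among the 16764 symbols, and all 7 passed the expression filter. Tdrd9, Mov10l1 and Pld6 had no row under these symbols and were not analysed here. Another 31 genes of the pathway served as context, of which 23 had a row and 22 were tested.

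RNA was sequenced from 3 groups of Brown Norway rat cells, each with 2 libraries. Undifferentiated spermatogonia (USg) were a germline stem cell line grown in SG medium, with 0 h in SD medium, and their RNA was taken at day 0, before the cells were placed on laminin. Differentiating spermatogonia (DSg) came from that same line after 7 days on laminin, of which 5 days (120 h) were in SD medium with all-trans-retinoic acid and neuregulin-1. The sample titles of USg also carry T120, so whether the groups were matched for time in culture is not settled. Spermatocyte-enriched cells (Spc) were primary testis germ cells left unbound on plastic, collagen-I and laminin, after 2.5 days in medium with 10% serum. DSg and USg thus came from 1 line and differed in medium and laminin, and possibly in days in culture. Spc differed from both in source, selection and medium. Stage cannot be told apart from these differences. Nothing in the labels says that the 2 libraries of a group came from separate animals, so p-values measure the spread between these libraries, which may be technical.

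The piRNA pathway protects the germ line from transposons. PIWI proteins carry small piRNAs that guide them to matching transcripts, which are cut in the cytoplasm or silenced at their genes by DNA methylation. Much of the work is done in nuage, germ granules that lie beside mitochondria, where scaffold proteins with tudor domains bind methylated arginines on PIWI proteins. In the mouse, PIWIL4 (MIWI2) is the nuclear PIWI protein known from fetal prospermatogonia, PIWIL2 (MILI) acts from fetal life into meiosis, and PIWIL1 (MIWI) appears at the pachytene stage, when the transcription factor A-MYB (Mybl1) turns on piRNA precursors and pathway genes.

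The promoters of 4 members are shown. They were chosen because Piwil1 rose most in Spc, Piwil4 fell most, and Tdrd1 and Mael held the E-box CACGTG, as Piwil1 did. Each window is the 250 bases before the annotated start, 5′ to 3′ on the strand of the gene, from RefSeq (GRCr8). Capitals mark a MYB core word on either strand, which was CAACGG, its variant CAACTG, or a form that begins with T, written TAACGG when the rest is as in the first word and TAACTG when as in the second. They also mark the E-box CACGTG.
Piwil1, chr12:33606584-33606833, minus strand: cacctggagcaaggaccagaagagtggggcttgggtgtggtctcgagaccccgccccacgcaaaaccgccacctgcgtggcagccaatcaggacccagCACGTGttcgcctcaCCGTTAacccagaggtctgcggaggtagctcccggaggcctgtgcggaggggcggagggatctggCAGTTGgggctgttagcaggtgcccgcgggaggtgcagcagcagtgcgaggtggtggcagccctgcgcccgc
Piwil4, chr8:19861221-19861470, minus strand: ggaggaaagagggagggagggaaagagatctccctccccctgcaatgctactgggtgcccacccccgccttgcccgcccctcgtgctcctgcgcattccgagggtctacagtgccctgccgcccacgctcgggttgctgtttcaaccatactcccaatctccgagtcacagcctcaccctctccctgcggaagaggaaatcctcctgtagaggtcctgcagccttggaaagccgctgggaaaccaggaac
Tdrd1, chr1:265880775-265881024, plus strand: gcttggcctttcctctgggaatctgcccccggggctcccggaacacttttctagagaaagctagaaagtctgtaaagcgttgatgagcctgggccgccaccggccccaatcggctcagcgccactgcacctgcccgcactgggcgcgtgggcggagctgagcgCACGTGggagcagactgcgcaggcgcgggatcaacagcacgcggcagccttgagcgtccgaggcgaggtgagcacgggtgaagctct
Mael, chr13:81029624-81029873, minus strand: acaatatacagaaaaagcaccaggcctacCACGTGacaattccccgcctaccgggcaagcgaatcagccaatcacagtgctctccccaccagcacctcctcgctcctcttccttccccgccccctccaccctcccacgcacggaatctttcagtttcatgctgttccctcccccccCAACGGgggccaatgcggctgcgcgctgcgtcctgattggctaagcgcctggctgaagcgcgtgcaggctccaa

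The table of promoters held 6 of the 7 measured members (not Piwil2). The Piwil1 window had MYB words starting 137 and 72 bases before the start and CACGTG at 152. The Mael window had a MYB word at 74 and CACGTG at 221, Tdrd1 had CACGTG at 87, and Piwil4, Asz1 and Gtsf1 had neither. A MYB word was thus in 2 of 6 member windows, against 24.2% of all 33469 windows of the same length, and CACGTG in 3 of 6, against 5.59%. The CCAAT box was in 6 of 6 windows, against 34.0% of all, and the site TGACGTCA in 0 of 6, against 1.59%. None of these motifs overlaps another in the windows shown, and a match is a description of letters, not of binding. CG dinucleotides numbered 17 in Piwil1, 11 in Piwil4, 22 in Tdrd1, 16 in Mael, 12 in Asz1 and 1 in Gtsf1, with a median of 5 over all windows. Among the 19 windows of other pathway genes, 5 held a MYB word, 6 held CACGTG and 8 held CCAAT. Dnmt3l and Pnldc1 held both of the motifs marked, and others, Tdrd6 among them, held neither. Whether a motif went with a change in level was not tested.

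Libraries held between 2657291 and 5697165 counts. The share of ribosomal RNA genes was 12.4% in DSg 1 and 7.81% in USg 1, and at most 0.734% in the other libraries. DSg 2 stood apart in a low, even background: 96.7% of olfactory receptor genes had a count there, with a median of 4 counts per gene, against a median of 0 or 1 in the other libraries. The summed level of 12 undifferentiated markers, in CPM (counts scaled to library size, here with TMM factors), was 2233 and 2786 in USg, 493 and 449 in DSg, and 267 and 248 in Spc. Of 11 tested, 10 were called lower and 1 higher in Spc against USg, where 16.6% of all tested genes were called lower and 17.9% higher. The higher one was Id4, with 49.0 and 47.4 CPM in USg and 140 and 118 in Spc. The 7 markers of differentiating spermatogonia summed to 1049 and 1059 CPM in DSg, against 233 and 347 in USg and 399 and 430 in Spc. Against USg, 4 of 7 were called higher in DSg and 0 lower, where 0.565% of all tested genes were called higher. The receptor gene Kit alone gave 597 and 562 CPM in DSg, against 63.2 to 86.0 in USg and Spc. Not all of the list peaked in DSg, since Prdm9 had 21.4 and 31.8 CPM there and 141 and 160 in Spc. The 15 spermatocyte markers summed to 7815 and 8603 CPM in Spc, against 672 to 1397 in the line. Markers of some somatic cell types were also higher in Spc, where 17.9% of all tested genes were called higher against USg. The 10 Sertoli cell markers summed to 1437 and 1177 CPM there, against 217 to 464 in the line, with 6 of 8 tested called higher. Clu alone gave 1011 and 787 CPM in Spc, and 168 to 381 in the line. No Sertoli marker was at 0 in Spc, where 54.6% and 64.1% of olfactory receptor genes had a count too. The 9 peritubular and fibroblast markers summed to 2536 and 2413 CPM, against 235 to 464, with 6 of 8 called higher and none at 0 in Spc. The 7 Leydig markers reached 164 and 176 CPM, against 5.4 to 24.2, of which Star alone gave 159 and 169. Of 3 tested, 1 was called higher against USg, Cyp11a1 had 0.788 and 1.09 CPM in Spc, and Insl3 had 1 count in Spc 1 and 0 in Spc 2. The 8 macrophage and blood markers summed to 54.0 and 71.8 CPM in Spc, against 13.3 to 37.4 in the line, with 4 of 6 tested called higher against USg. The 5 endothelial markers went the other way, at 32.9 and 44.4 CPM in Spc against 210 and 138 in USg, with 3 called lower and 1 higher. Their part in the results below was not tested.

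**Figure D1:**
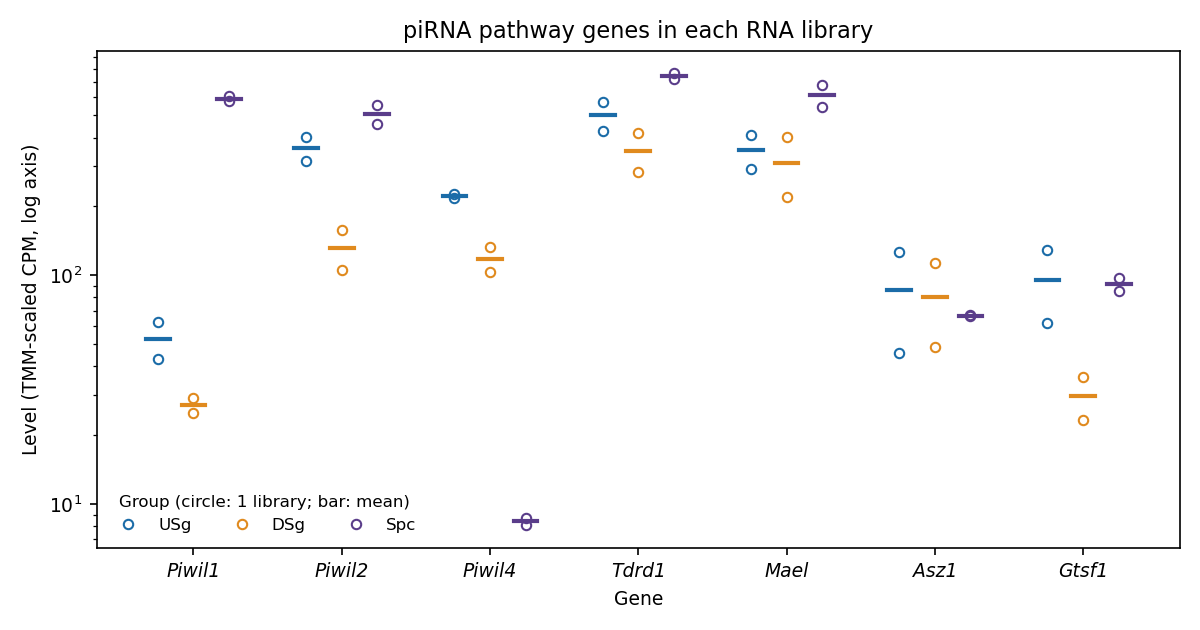
Level of each of the 7 measured piRNA pathway genes (y axis, TMM-scaled CPM, log scale) by gene (x axis) in USg, DSg and Spc. Circles are single libraries and bars are means of 2. Piwil1 lies at 606 and 580 CPM in Spc, above its 4 libraries of the line, and Piwil4 at 8.08 and 8.71 in Spc, below its own.

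Among the PIWI genes, Piwil1 was the one that rose most in spermatocyte-enriched cells. It stood at 62.5 and 42.9 CPM in USg, at 25.1 and 29.1 in DSg and at 606 and 580 in Spc. The Spc libraries lay far above all 4 libraries of the line, and DSg lay below USg without overlap. The difference of Spc from USg was 3.50 ± 0.33 on the log2 scale (fold change ± SE, edgeR adjusted p = 2.45e-04), or 11.3-fold, and that from DSg was 4.45 ± 0.35 (adjusted p = 2.06e-04), or 21.9-fold. DSg against USg gave -0.95 ± 0.32 (adjusted p = 0.161), which did not pass. The order of the means was Spc, USg, DSg, at 593 ± 18.5, 52.7 ± 13.9 and 27.1 ± 2.85 CPM (mean ± SD, n = 2), and only the first step passed the test.

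Piwil4, which in the mouse encodes the nuclear PIWI protein of fetal germ cells, went the other way. Its level was 217 and 226 CPM in USg, 133 and 103 in DSg, and 8.08 and 8.71 in Spc. The libraries of the 3 groups did not overlap, in the order USg, DSg, Spc. Spc was lower than USg by 26.3-fold (log2 fold change -4.72 ± 0.35, edgeR adjusted p = 1.11e-04) and lower than DSg by 14.0-fold (-3.81 ± 0.34, adjusted p = 2.57e-04). The step from USg to DSg, -0.91 ± 0.30, did not pass (adjusted p = 0.154). In Spc the gene still had 41 and 40 counts, so it was detected in both libraries. These are bulk samples, so fewer cells with a transcript and less of it per cell cannot be told apart.

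Piwil2, which binds the primary piRNAs that start the silencing cycle, was present in all groups. It stood at 404 and 317 CPM in USg, 158 and 106 in DSg, and 460 and 558 in Spc. DSg was thus lowest, and Spc lay just above USg without overlap. Spc was 3.87-fold higher than DSg (1.95 ± 0.33, edgeR adjusted p = 0.00370), whereas Spc against USg gave 0.50 ± 0.32 (adjusted p = 0.252). DSg against USg, -1.45 ± 0.33, missed the threshold at an adjusted p of 0.0562. That value moved in both directions with the processing. It was 0.00504 with DESeq2, 0.0451 with limma-voom and 0.0269 with the replicate number as a block. In the edgeR fit of the USg and DSg libraries alone it was 0.155. Of 17 alternatives, 7 called Piwil2 lower in DSg. These include the fit without both USg 1 and DSg 1, which was added after the data were seen.

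Calls for Piwil1, Piwil2 and Piwil4 between Spc and DSg, and for Piwil1 and Piwil4 between Spc and USg, held in each of 17 alternatives. Over these, the log2 fold change of Spc against USg ranged from 3.26 to 3.76 for Piwil1 and from -4.79 to -4.67 for Piwil4.

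The makeup of the PIWI counts can be read within each library, where it does not depend on scaling between libraries. Shares are of summed counts and are not corrected for transcript length, so they compare libraries and not the abundance of the 3 genes. Piwil4 made up 31.8% of the summed counts of Piwil1, Piwil2 and Piwil4 in USg 1 (exact binomial 95% interval 29.6 to 34.0) and 38.6% in USg 2 (37.0 to 40.3). In DSg its share was 42.2% (38.7 to 45.7) and 43.4% (40.1 to 46.8). In Spc it was 0.752% (0.540 to 1.02) and 0.759% (0.543 to 1.03). Piwil1 took 9.15% and 7.32% in USg, 7.93% and 12.2% in DSg, and 56.4% and 50.6% in Spc. These intervals cover counting error only. Piwil2 stayed between 42.8% and 59.1% in the 6 libraries, while the shares of the other two genes changed places between the line and Spc. The ratio of Piwil1 to Piwil4 counts was between 0.188 and 0.288 in the 4 libraries of the line and 75.0 and 66.6 in Spc.

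**Figure D2:**
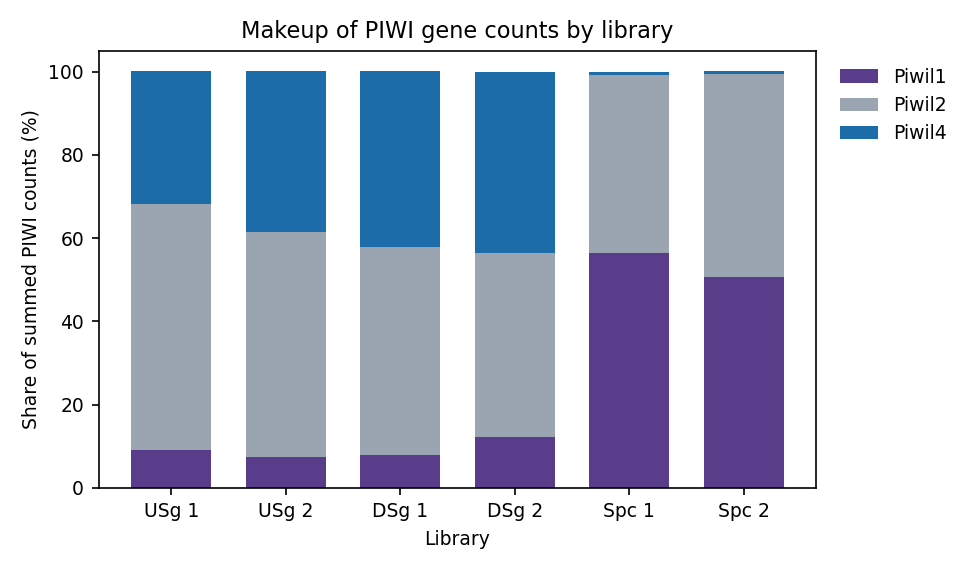
Share of each PIWI gene in the summed PIWI counts (y axis, percent) in each library (x axis), as stacked bars. Piwil4 fills 31.8% to 43.4% of the bar in the 4 libraries of the line and under 1% in Spc, where Piwil1 fills 56.4% and 50.6%.

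Tdrd1, the tudor scaffold that holds PIWIL2 in nuage, changed less than the PIWI genes in both comparisons with DSg. Between Spc and USg it changed less than Piwil1 and Piwil4, but not less than Piwil2. Tdrd1 stood at 574 and 427 CPM in USg, 417 and 283 in DSg, and 764 and 720 in Spc. Spc was highest and DSg lowest, with USg 2 only just above DSg 1. Tdrd1 was 2.12-fold higher in Spc than in DSg (1.08 ± 0.32, edgeR adjusted p = 0.0368). Spc against USg (0.57 ± 0.32, adjusted p = 0.197) and DSg against USg (-0.52 ± 0.32, adjusted p = 0.413) did not pass. The call against DSg was lost with upper quartile scaling (adjusted p = 0.0555) and without DSg 2 (0.162), Spc 1 (0.251) or Spc 2 (0.195). Counts of Tdrd1 per count of Piwil2 were 1.42 and 1.35 in USg, 2.65 and 2.68 in DSg, and 1.66 and 1.29 in Spc. In DSg this ratio thus lay above the ratio in the other 4 libraries.

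Gtsf1 encodes a small zinc finger protein that assists PIWI proteins in silencing. It stood at 61.7 and 129 CPM in USg, 36.0 and 23.2 in DSg, and 97.8 and 85.1 in Spc. DSg lay below both other groups, and the USg libraries spanned both Spc values. Spc was 3.11-fold higher than DSg (1.64 ± 0.43, edgeR adjusted p = 0.0225), a call lost without DSg 1 (0.0524), DSg 2 (0.137) or Spc 1 (0.0844). DSg against USg had a log2 fold change of -1.70 ± 0.43 and missed the threshold (adjusted p = 0.0781), but 7 of 17 alternatives called it lower, among them DESeq2 (0.00859) and the replicate block (0.0377). Spc against USg was -0.06 ± 0.41 (adjusted p = 0.917).

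Mael encodes Maelstrom, a nuage protein with an HMG domain needed for transposon silencing. Its level was 411 and 293 CPM in USg, 401 and 219 in DSg, and 679 and 545 in Spc. USg and DSg overlapped, and both Spc libraries lay above them. The difference of Spc from DSg, 0.98 ± 0.37, did not pass (edgeR adjusted p = 0.0803). Of 17 alternatives, 6 called it, among them limma-voom (0.0477), the replicate block (0.0319) and the unplanned fit without both USg 1 and DSg 1. Spc against USg gave 0.80 ± 0.37 (adjusted p = 0.123), and DSg against USg gave -0.18 ± 0.37 (adjusted p = 0.825).

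Asz1 encodes GASZ, a scaffold that ties nuage to the mitochondrial surface. It stood at 127 and 45.9 CPM in USg, 113 and 48.5 in DSg, and 66.8 and 66.6 in Spc. The 2 libraries of USg differed 2.77-fold and those of DSg 2.33-fold, with the Spc values between them, so the groups overlapped in every comparison. Its log2 fold changes were -0.10 ± 0.53 for DSg against USg (edgeR adjusted p = 0.942), -0.37 ± 0.53 for Spc against USg (0.620) and -0.27 ± 0.53 for Spc against DSg (0.736). The higher library in each case, USg 1 and DSg 1, was also the one with most ribosomal RNA counts. The part of the latter in the result was not tested.

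**Figure D3:**
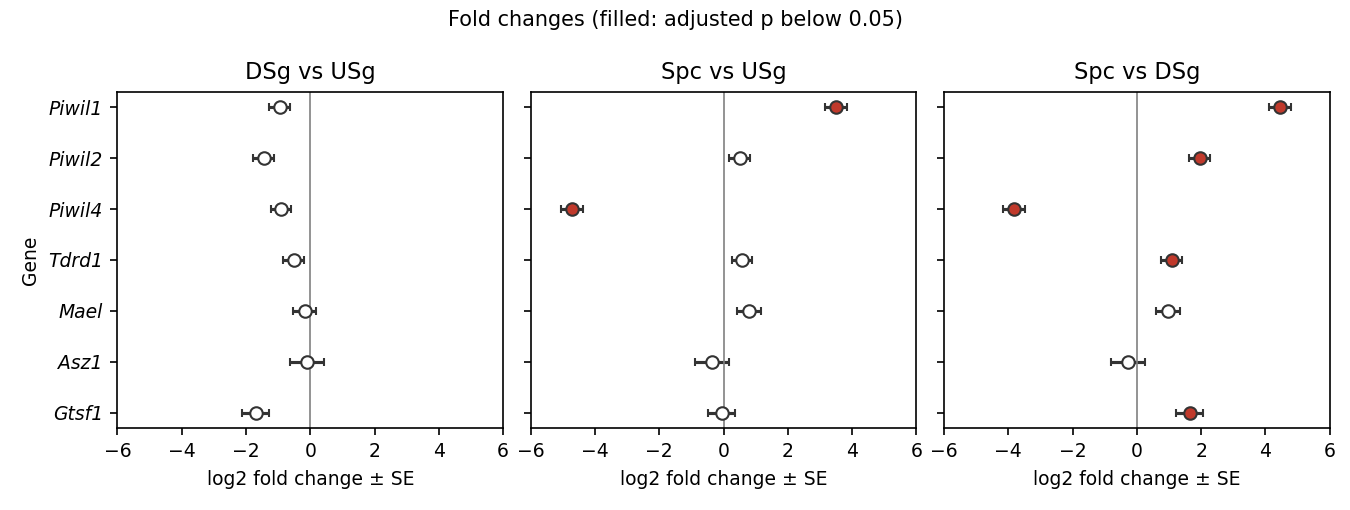
Log2 fold change with its SE (x axis) of each measured member (y axis) in the 3 comparisons. Filled points passed an adjusted p of 0.05. In DSg vs USg all 7 points lie left of 0 and none is filled, whereas in Spc vs DSg the filled points run from -3.81 for Piwil4 to 4.45 for Piwil1.

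No measured member was called between the stages of the cultured line. Between DSg and USg, 0 of 7 members were called higher and 0 lower by edgeR, where 0.565% of all tested genes were called higher and 1.92% lower. At an unadjusted p below 0.05, 4 members differed, all 4 of them lower (Piwil1, Piwil2, Piwil4 and Gtsf1), where 10.9% of all tested genes were lower at that p. DESeq2 and the replicate block each called 2 lower, and limma-voom called 1. The median log2 fold change of the 7 members was -0.91, against 0.01 over all tested genes. In simulated data of this design, 2.99% of 2-fold and 70.1% of 4-fold changes were recovered between DSg and USg. On the log2 scale, the 2 real libraries lay further apart in USg and DSg (SD 0.95 each) than in Spc (0.43). Yet simulated 4-fold recovery was no lower for DSg against USg than for Spc against USg (59.7%) or DSg (56.7%). The simulated shares may therefore be too high for DSg against USg, and do not measure what these libraries could detect. Between Spc and USg, 1 of 7 was called higher (background 17.9%) and 1 lower (background 16.6%), with a median of 0.50 against -0.04. Between Spc and DSg, 4 of 7 were called higher (background 14.8%) and 1 lower (background 11.7%), with a median of 1.08 against -0.03. The comparisons share libraries, and so are not independent of each other. Upper quartile scaling called 1486 genes higher and 1925 lower between Spc and DSg, in place of 1806 and 1433.

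Among the tudor and helicase partners, Tdrd6 rose in Spc, as Piwil1 did. Tdrd6, a chromatoid body protein of spermatocytes and spermatids, had 17.0 and 8.19 CPM in USg, 8.08 and 16.2 in DSg, and 431 and 473 in Spc. It was 36.9-fold higher in Spc than in USg (5.20 ± 0.50, edgeR adjusted p = 2.44e-04) and 36.6-fold higher than in DSg (5.19 ± 0.50, adjusted p = 3.13e-04). Tdrd5, needed for piRNA production and spermatid development, fell instead. Its level was 1009 and 557 CPM in USg, 448 and 234 in DSg, and 145 and 147 in Spc, and Spc was lower than USg by 5.35-fold (-2.42 ± 0.42, adjusted p = 0.00293). The step from USg to DSg had -1.20 ± 0.41 (adjusted p = 0.167).

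The germ cell helicase Ddx4 (Vasa), a general germ cell marker, stood at 389 and 252 CPM in USg, 332 and 203 in DSg, and 450 and 455 in Spc. None of its comparisons passed, with a log2 fold change of 0.50 ± 0.35 for Spc against USg (edgeR adjusted p = 0.297) and 0.76 ± 0.35 against DSg (0.142). Stk31 and Tdrkh passed between Spc and DSg alone, Stk31 as higher (1.08 ± 0.30, adjusted p = 0.0270) and Tdrkh, the mitochondrial tudor protein, as lower (-1.82 ± 0.58, 0.0466). The Tdrkh call was lost with limma-voom (0.0575) and without Spc 1 (0.0916), Spc 2 (0.0689) or DSg 1, where the value was -0.86 (0.335). The Stk31 call was lost without DSg 2 (0.121), Spc 1 (0.181) or Spc 2 (0.274). The co-chaperone gene Fkbp6 was lower in Spc than in USg (-0.98 ± 0.33, 0.0455), a call that held in 10 of 17 alternatives and was lost without USg 2 (-0.54, adjusted p = 0.283), DSg 1, DSg 2, Spc 1 or Spc 2. Rnf17 had 196 and 146 CPM in USg, 438 and 331 in DSg, and 246 and 253 in Spc, highest in DSg, but its difference of DSg from USg missed the threshold (1.17 ± 0.31, adjusted p = 0.0876, and 0.0243 with DESeq2). Of the 9 genes of this list, 1 was called higher and 2 lower in Spc against USg, and 2 higher and 1 lower against DSg. Over all tested genes, 17.9% were called higher and 16.6% lower against USg, and 14.8% and 11.7% against DSg, so the counts against USg lay near the background.

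Genes of the nuclear silencing list were mostly lower in Spc, as Piwil4 was. Besides genes tied to PIWIL4 and DNA methylation, the list held Mov10, Setdb1 and Trim28, which are active in many cell types. Of 8 tested, 6 were called lower and 0 higher against USg, with a median log2 fold change of -2.11. Against DSg, 5 were called lower and 0 higher, with a median of -1.79. Mov10 is 1 of the 6 called against USg and is not among the 5 called against DSg. Over all tested genes, 16.6% were called lower against USg and 11.7% against DSg. Of the 6 calls against USg, those of Dnmt3l and Dnmt3b were lost without Spc 1, and those of Dnmt3l, Dnmt3b and Dnmt3a without Spc 2. Tex15, whose product partners with PIWIL4 in the mouse, had 2542 and 1870 CPM in USg, 4115 and 3831 in DSg, and 397 and 486 in Spc. It was lower in Spc than in USg by 5.00-fold (-2.32 ± 0.35, edgeR adjusted p = 0.00140) and lower than in DSg (-3.17 ± 0.36, 6.12e-04). Its highest level was in DSg, although the step from USg did not pass (0.85 ± 0.33, adjusted p = 0.217).

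The transposon silencing gene Morc1 stood at 17.4 and 9.79 CPM in USg, 15.8 and 8.89 in DSg, and 0.788 and 2.18 in Spc. It was lower in Spc than in USg (-3.17 ± 0.68, edgeR adjusted p = 0.00741) and than in DSg (-3.03 ± 0.68, 0.0123), the latter lost without DSg 1 (0.0642) or Spc 1 (0.0701). Dnmt3l, the cofactor of de novo DNA methylation, had only 1 and 4 counts in Spc, and 13 to 36 in the line. It was lower by 3.04 ± 0.85 against USg (adjusted p = 0.0233), called as lower in 15 of 17 alternatives. The methyltransferase genes Dnmt3a (-1.91 ± 0.31, adjusted p = 0.00194) and Dnmt3b (-1.41 ± 0.36, 0.0170) were lower as well.

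Mov10, a helicase related to the absent Mov10l1 and active in many cell types, was the 1 pathway gene called between DSg and USg. It stood at 115 and 272 CPM in USg, 46.5 and 47.1 in DSg, and 24.4 and 24.2 in Spc. The USg libraries were uneven, and both lay above DSg. The fold change of DSg against USg was -2.05 ± 0.42 (edgeR adjusted p = 0.0446), and the call was lost in 6 of 17 alternatives, among them the fit without USg 2 (-1.36, adjusted p = 0.0693), the fits without DSg 1 (0.127) or DSg 2 (0.255) and that of the 4 libraries compared (0.107). Setdb1 and Trim28, heterochromatin genes of somatic and germ cells alike, were not called in any comparison.

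Of the 4 tested genes of piRNA trimming and modification, 2 were called lower in Spc against USg (16.6% of all tested genes) and 0 higher (17.9%). These were Pnldc1, the trimming exonuclease (80.3 and 71.9 CPM in USg, 24.8 and 28.7 in Spc, -1.50 ± 0.32, edgeR adjusted p = 0.00679), and Gpat2, a mitochondrial acyltransferase needed for piRNA production (-1.05 ± 0.31, 0.0283). Both calls were lost without Spc 1 (Pnldc1 0.166, Gpat2 0.311) or Spc 2 (0.103 and 0.328), and that of Gpat2 also with no filter (0.0629) and without USg 1 (0.0677). Henmt1, which methylates piRNA ends, and Prmt5, which methylates PIWI arginines, were not called. Against DSg, 0 of 4 were called, where 14.8% of all tested genes were called higher and 11.7% lower. Of the 4, 0 had an unadjusted edgeR p below 0.05 there.

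Mybl1, the gene of A-MYB, rose in Spc. Its level was 29.3 and 5.52 CPM in USg, 24.2 and 7.81 in DSg, and 250 and 269 in Spc. The libraries of the line were uneven, and all 4 lay far below Spc. It was 15.5-fold higher in Spc than in USg (3.96 ± 0.77, edgeR adjusted p = 0.00470) and 16.5-fold higher than in DSg (4.04 ± 0.77, 0.00611), the latter lost without DSg 2 (0.0614).

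Over the 22 tested genes of these lists, edgeR called 0 higher and 1 lower in DSg against USg, 2 higher and 10 lower in Spc against USg, and 3 higher and 6 lower in Spc against DSg. The shares over all tested genes were 0.565% higher and 1.92% lower in DSg against USg. For Spc they were 17.9% higher and 16.6% lower against USg, and 14.8% and 11.7% against DSg. The higher calls in Spc were thus not above the background in either comparison. Between Spc and USg the median log2 fold change was -0.87, against -0.04 over all tested genes. The 10 lower calls became 5 without Spc 1 and 4 without Spc 2, and the 6 lower calls against DSg became 3 without DSg 1 and 2 without Spc 1. Without DSg 2, the 3 higher calls against DSg became 1, and the 4 higher calls among the members became 2 without DSg 2 or without Spc 1.

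**Figure D4:**
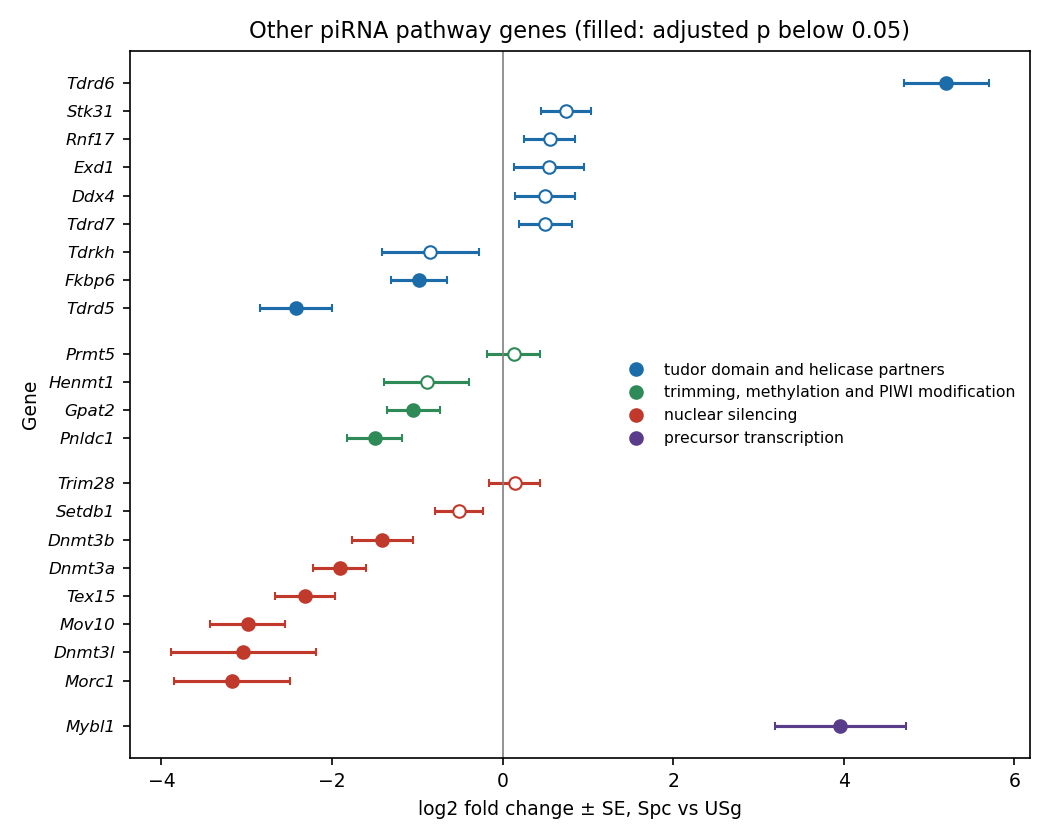
Log2 fold change of Spc vs USg with its SE (x axis) of the 22 tested other pathway genes (y axis), coloured by list and sorted within it. Filled points passed an adjusted p of 0.05. Tdrd6 at 5.20 and Mybl1 at 3.96 lie far right, and 6 of 8 nuclear silencing genes are filled on the left.

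The genes with the most similar pattern were ranked by the root mean square (RMS) difference of log2(CPM + 1), centred per gene over the 6 libraries, among 9832 genes with at least 10 CPM in a group. All genes were measured in the same 6 libraries, with their depth and source in common, so such ranks only describe these libraries. Piwil1 was closest to Cd200, a membrane glycoprotein gene (RMS difference 0.14), to the sperm protein gene Spesp1 (0.16) and to S100a10 (0.23). Spesp1 stood at 18.1 and 12.6 CPM in USg, 10.1 and 9.16 in DSg, and 206 and 191 in Spc. Mybl1 was the 354th gene in likeness to Piwil1 (0.82) and Tdrd6 the 235th (0.72).

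Piwil4 was closest to the semaphorin gene Sema4d (RMS difference 0.24), to Nell1 (0.26) and to the homeobox gene Rhox10 (0.31). Rhox10 stood at 48.2 and 89.0 CPM in USg, 42.0 and 26.1 in DSg, and 2.76 and 2.18 in Spc. Of the pathway genes, Morc1 (0.89, rank 213) and Tex15 (0.99, rank 321) were nearest to Piwil4. Piwil2 was closest to Skap1 (0.13), Lrrc16a (0.15) and the chromatin remodeller gene Chd1 (0.16), with Tdrd1 at rank 170 (0.44) and Gtsf1 at 221 (0.47). Mael was closest to Etfa (0.06), Gmps (0.11) and Spag1 (0.12), and Ddx4 and Tdrd1 followed at ranks 25 and 27 (0.17 each).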

How the data were processed

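RNA sequencing of 6 libraries was used. The Foxa2 ChIP samples, 2 in number, were not used here. The authors deposited raw read counts per gene symbol, with no normalization, as the values show. Per the submitters' processing notes the tools included HOMER, featureCounts, edgeR 3.2.4, STAR 2.5.3a and Subread 1.4.6, with builds rn6 and rn5. Their roles, and the annotation and strand setting, were not given in the sources used here, so overlapping genes may share reads.

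Of 16764 symbols, 12210 passed filterByExpr (minimum count 10, minimum total 15). Counts were scaled by TMM factors and tested in edgeR 4.0.16 (R 4.3.3) by quasi-likelihood in 1 fit of 6 libraries with 3 residual degrees of freedom. P-values were two-sided and Benjamini-Hochberg adjusted over all genes tested, with a threshold of 0.05. SEs were obtained by dividing the size of each log2 fold change by the root of its F value. Alternatives included DESeq2 1.42.0, limma-voom (limma 3.58.1), other scalings, other filters, a replicate block and each library left out. Leaving out USg 1 and DSg 1 together was added after the data were seen. Tests were checked on simulated data.

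Members, lists and tests were chosen with earlier results of these data known. All members were named, with pathway genes called in any comparison, others by level, and for Piwil1, Piwil2, Piwil4 and Mael the 3 genes nearest in pattern. Levels of different genes are not compared, since lengths were not used.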

Additional observations from a re-analysis of the deposited data

How the results depend on the processing

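Each library left out in turn gave 0 to 2 members called lower in DSg against USg (0 with all libraries), 1 called higher and 1 lower in Spc against USg, and 2 to 5 higher and 1 lower in Spc against DSg. For the other pathway genes these fits gave 0 to 1 lower in DSg against USg, 4 to 10 lower in Spc against USg, and 1 to 4 higher and 2 to 8 lower in Spc against DSg. A group with 1 library left is assumed to vary like the others, and no gene at all was called in DSg against USg without DSg 1 or without DSg 2. Members called lower in DSg against USg numbered 2 with no filter, 2 with DESeq2, 1 with limma-voom and 2 with the replicate block. DESeq2 called 1 other pathway gene higher there, and the 1 lower call became 0 with upper quartile or total-count scaling or in the fit of the 4 libraries compared, and 2 with no filter. Calls over all tested genes also moved between these fits, as given below for several of them. The counts in this paragraph therefore do not describe the pathway alone.

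With USg 1 and DSg 1 both left out, the spread rests on the Spc pair, and 2992 genes were called higher and 3335 lower in DSg against USg. Members called lower then numbered 5 in DSg against USg, and in Spc against USg 4 were higher and 2 lower. Other pathway genes called in that fit were 5 higher and 8 lower (DSg against USg), 7 higher (Spc against USg) and 6 higher (Spc against DSg). Both Spc comparisons also had other pathway genes called lower, which are not counted here. Far more of all genes passed in that fit than in the main fit, and USg and DSg each kept 1 library. Calls in that fit, for members and others alike, were not set against that background and show no change of the pathway by themselves.

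Signs turned for values that had not passed. With each library left out in turn, DSg against USg ranged from -0.87 to 0.20 for Mael, from -1.0 to 0.71 for Asz1 and from -0.84 to 0.05 for Ddx4, positive without DSg 2 and, for Asz1, also without USg 1 (0.40 and 0.71). Asz1 ranged from -0.92 to 0.49 in Spc against USg, positive without USg 1, and from -0.77 to 0.64 in Spc against DSg, positive without DSg 1. Gtsf1 in Spc against USg ranged from -0.53 to 0.58, positive without USg 2 and without Spc 2 (0.04). With USg 1 and DSg 1 both left out, Asz1 gave 0.51 against USg and 0.58 against DSg. Where no reason is given, the cause was not tested. Of 21 values of members, 21 kept sign and side of the threshold with RLE or total-count scaling, with ribosomal RNA genes left out and with the filter of 5 CPM, and 20 with upper quartile scaling. Over all genes, DSg against USg had 69 higher and 234 lower calls, which became 239 and 542 with DESeq2, 189 and 855 with no filter, 10 and 80 in the fit of 4 libraries, 168 and 436 with the replicate block, 317 and 1184 without USg 1, and 58 and 141 with total-count scaling. The lower calls alone became 411 without Spc 1 and 383 without Spc 2. Spc against DSg had 1806 higher and 1433 lower calls, which became 1168 and 474 without Spc 1, 1231 and 466 without Spc 2, and 1407 and 1681 with total-count scaling. Spc against USg had 2185 and 2029, which became 1306 and 1018 without Spc 1 and 1336 and 922 without Spc 2. Total-count scaling moved the median of all genes to 0.16 in DSg against USg and -0.22 in Spc against DSg, and upper quartile scaling to 0.15 and -0.25. Same-numbered libraries share only a number in the labels. Their deviations correlated at 0.25 between USg and DSg, -0.27 between USg and Spc and 0.011 between DSg and Spc, over genes.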

Other observations

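Several pathway genes differed between the 2 libraries of a group of the line in the same direction. Asz1 was 2.77-fold higher in USg 1 than in USg 2 and 2.33-fold higher in DSg 1 than in DSg 2. The ratio of library 1 to library 2 was 3.08 in USg and 2.45 in DSg for Tdrkh, and 1.81 and 1.91 for Tdrd5. For Mybl1 it was 5.31 and 3.10, and for Sycp1, a synaptonemal complex gene of spermatocytes, 4.70 and 2.00. In Spc the ratio was 1.00 for Asz1, 0.929 for Tdrkh, 0.987 for Tdrd5, 0.927 for Mybl1 and 0.792 for Sycp1. For Piwil4 it was 0.958 in USg and 1.29 in DSg, for Gtsf1 0.48 and 1.55, and for Mov10 0.425 and 0.986. Not all spermatocyte markers went with Sycp1, since the ratio in USg and DSg was 0.809 and 1.51 for Sycp3. For Syce2 it was 0.611 and 0.916. These genes were chosen after their values were seen. USg 1 and DSg 1 also held the most ribosomal RNA counts, whose part in the ratios was not tested.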
